A study of Drosophila melanogaster with 16 samples.

Results

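The subunit genes of the vacuolar proton ATPase (V-ATPase) of Drosophila larvae were taken as all genes whose symbol in the deposited expression table begins with Vha, 22 of 9982. None of them was chosen here for its level or its response, but the authors had already filtered that table on low counts. By their known subunits, 10 encode V1, 10 encode V0 and 2 encode accessory proteins. All 22 passed the filter on low values. The table lists the annotated accessory gene VhaAC45RP under another symbol, CG31030, which the choice by symbol did not take. Of 33 Vha genes in the reference annotation, 11 were not in the table and were not analysed here.

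The V-ATPase is a rotary pump that spends ATP to move protons across membranes. It acidifies lysosomes and endosomes in cells generally and synaptic vesicles in neurons, and in the plasma membrane of some insect epithelia it energizes secretion: in Drosophila it drives fluid secretion by the Malpighian tubules and acid secretion by the copper cells of the midgut. The peripheral V1 sector holds the ATP-binding subunits, the membrane sector V0 holds the proton channel, and several subunits are encoded by more than 1 gene in the fly.

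Each library was RNA from 20 whole larvae, with 4 libraries in each of 4 groups: grn RNAi-labelled larvae on a high sugar diet (HSD, 10% yeast and 15% sucrose) or on a low sugar diet (LSD, 10% yeast), and control larvae on HSD or LSD. All larvae carried Tub-GAL4, a driver active in all tissues. In the tested genotype it drove an RNAi hairpin against grn, which encodes the GATA factor Grain, and in the control genotype a control hairpin against luciferase from another insertion line, so that other differences between the lines and the RNAi cannot be told apart. The diets were given for 8 h to early 2nd instar larvae 48 h after egg laying, whereas the sample labels give the 3rd instar, and their genotype field names wild type for LSD samples and an erk7 mutant for HSD samples, so the groups were taken from the titles and source names. In whole larvae, fewer cells of a type and less RNA per cell cannot be told apart. Nothing in the labels says that the 4 libraries of a group came from separate crosses, so the p-values measure the spread between these libraries.

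Reads counted as grn, the targeted gene, amounted to 227, 259, 229 and 240.3 normalized CPM (CPM, read counts scaled to library size, with a further scaling by the authors) in the grn RNAi-labelled libraries on LSD, against 14.6, 17.8, 20.8 and 19.1 in control libraries. On HSD they amounted to 207, 223, 231 and 215 in the grn RNAi-labelled libraries, against 20.1, 21.6, 23.4 and 17.1 in control libraries. Reads of the targeted gene were therefore more, not fewer, under the label grn RNAi, and directions below compare libraries by these labels. The paper reports, from measurements apart from these libraries, that the RNAi line used here lowered grn expression. Where the additional reads counted as grn came from was not tested. The reads behind the values numbered 24310235 to 32644817 per grn RNAi-labelled library and 24038848 to 27605460 per control library. After the authors' scaling the values of a library summed to 929735 to 963521 in the grn RNAi-labelled libraries and to 1025511 to 1131938 in control libraries, so a comparison of the genotypes depends on that scaling. Changes were tested with limma on log2(normalized CPM + 0.5) over 9950 genes, with Benjamini-Hochberg adjustment and a threshold of 0.05, and all fold changes below are on that log2 scale.

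Levels separated 18 abundant genes, with a mean of at least 50 normalized CPM over all libraries, from 4 sparse ones. A mean over whole larvae does not show where a gene is expressed. The abundant set held at least 1 gene for each of the subunits A to H of V1 and a, c, c'', d and e of V0, and both accessory genes. The 4 sparse genes were second copies for the A, D and e subunits: Vha68-1 with a mean of 46.1, VhaM9.7-c with 27.6, Vha36-3 with 19.5 and VhaM9.7-a with 2.1. Just above the line were Vha100-1 with 65.3 and Vha100-4 with 71.2.

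Per kilobase of exon, Vha16-1, the proton-carrying c subunit present in several copies per pump, was the most abundant gene in control larvae on LSD with 1008 normalized CPM per kb (range 935 to 1079 over 4 libraries). The G subunit gene Vha13 followed with 649 (619 to 698) and the catalytic A subunit gene Vha68-2 with 515 (491 to 546). These first 3 genes did not overlap in their ranges. The B subunit gene Vha55 at 426, the E subunit gene Vha26 at 405 and the F subunit gene Vha14-1 at 379 overlapped each with the next, as did Vha36-1, VhaPPA1-1 and VhaAC45 between 278 and 287. The a subunit genes were far lower per kb than the c subunit gene: 155 for Vha100-2, 77.9 for Vha100-5, 33.2 for Vha100-4 and 18.1 for Vha100-1. Vha36-3 at 16.6 and Vha68-1 at 16.6 could not be ordered, and VhaM9.7-a was last with 2.79.

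**Figure D1:**
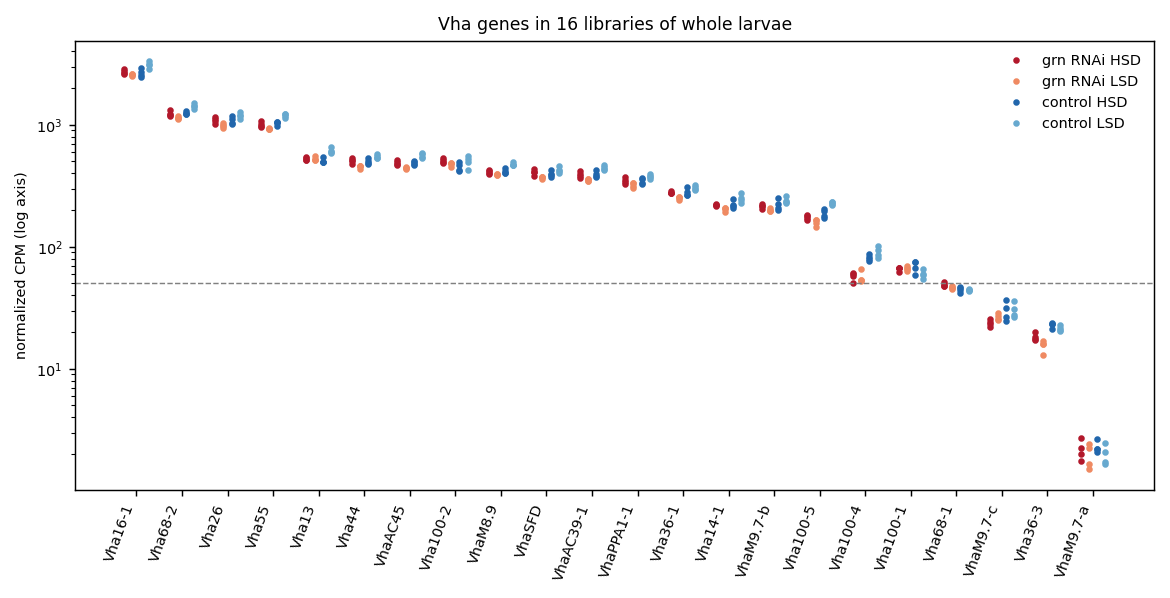
Normalized CPM of the 22 Vha genes on a log axis, 1 point per library, in the order of their mean over all 16 libraries, with 4 libraries in each group (dark red, grn RNAi HSD; light red, grn RNAi LSD; dark blue, control HSD; light blue, control LSD). The dashed line at 50 separates the 18 abundant genes from the 4 sparse ones.

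On LSD, the V-ATPase genes were lower in the grn RNAi-labelled libraries than in control libraries: 17 of 22 fell and 0 rose, where 27.1% of all genes tested were lower and 27.1% higher. The median log2 fold change of the 22 genes was -0.27, against 0.03 for all genes. By sector, 9 of 10 V1 genes, 6 of 10 V0 genes and 2 of 2 accessory genes fell. At an unadjusted p under 0.05 limma also gave 17 lower and 0 higher, as did edgeR and DESeq2 at an adjusted p under 0.05. Over all 9950 genes, edgeR called 2681 lower and 2660 higher, and DESeq2 2827 and 2694. All 17 stayed below the threshold in each of the 8 fits that left out 1 library. The count depended on scaling: unscaled CPM gave 6 lower and 2 higher, where 1598 of all 9950 genes were lower and 5368 higher. Quantile normalization left 4 lower and 4 higher, where 1905 of all genes were lower and 4105 higher. Those scalings also moved the median of all genes, by 0.19 and 0.10, and relative to that median the Vha genes stood at -0.29 and -0.14, against -0.30 with the authors' scaling. Vha100-4, Vha100-5, Vha36-3 and Vha55 were lower under all 3 scalings and with both count tests. With quantile normalization Vha14-1, Vha16-1, Vha26, Vha68-2, VhaAC39-1, VhaAC45 and VhaM9.7-b kept a value below 0 on LSD but no longer passed.

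On HSD, few V-ATPase genes differed between the genotypes: 3 of 22 were lower in the grn RNAi-labelled libraries, against 21.2% of all genes tested, and 1 was higher, against 17.9%. The median of the 22 was -0.02, and that of all genes 0.01. The genes that fell were Vha100-4, Vha36-3 and VhaM9.7-c, and Vha68-1 rose. Without the authors' scaling, as with quantile normalization, 12 genes were higher and 2 lower, with all genes shifted by 0.14 and 0.12. Of all 9950 genes, 4209 were then higher and 1392 lower without the scaling, and 3930 higher and 1442 lower with quantile normalization. Vha100-4, Vha36-3 and Vha68-1 passed in their direction under all 3 scalings and with both count tests. VhaM9.7-c lost its call in 5 of 8 fits that left out 1 library.

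**Figure D2:**
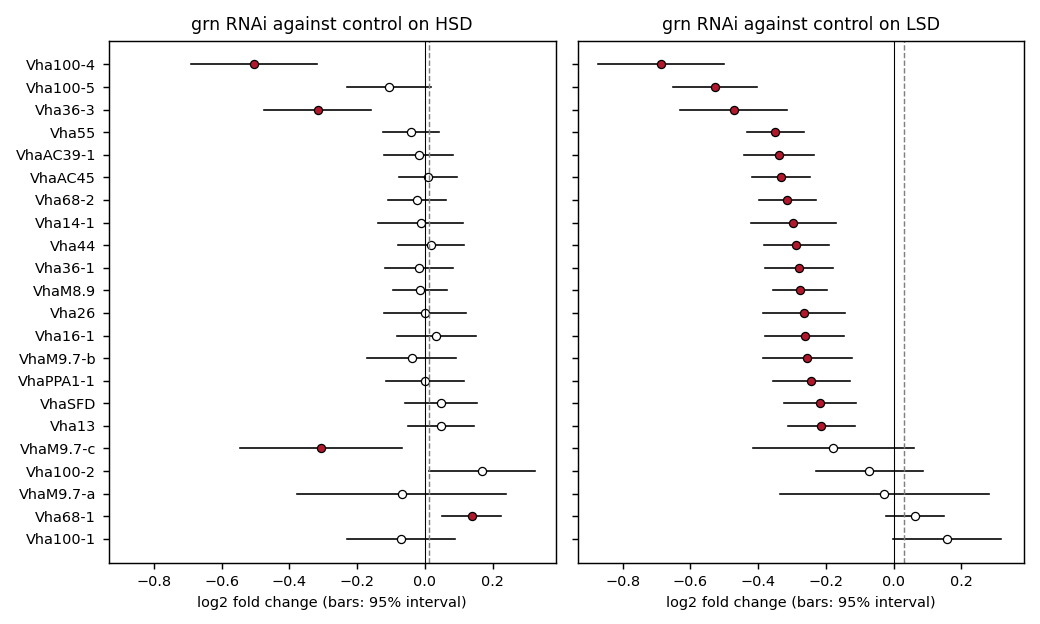
Log2 fold change of the grn RNAi-labelled libraries against control for each Vha gene on HSD (left) and on LSD (right), with its 95% interval. Filled points had an adjusted p under 0.05 and the dashed line is the median of all genes. On LSD 17 genes were called lower, of which 6 (Vha13, Vha36-1, Vha44, VhaM8.9, VhaPPA1-1 and VhaSFD) turned above 0 with quantile normalization. On HSD 3 were called lower and 1 higher, where 12 were higher without the authors' scaling, as were 4209 of all 9950 genes.

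The difference between the diets was tested directly. The change of the grn RNAi-labelled libraries against control was higher on HSD than on LSD for 11 of 22 genes and lower for 0, where 3.72% and 1.63% of all genes were called. The median difference was 0.26, against -0.02 for all genes. At an unadjusted p under 0.05 limma gave 16 higher and 1 lower, edgeR 11 and 0 and DESeq2 14 and 0 at an adjusted p under 0.05. Over all 9950 genes, edgeR called 365 higher and 162 lower, and DESeq2 698 and 335. The count was 4 without the authors' scaling and 4 with quantile normalization, where 244 and 385 of all 9950 genes were called higher. It was 7 without any 1 of control LSD replicate 1, control HSD replicate 1, 2 or 4, grn RNAi HSD replicate 1 or 4, or replicate 2, 3 or 4 of grn RNAi on LSD. In those fits 249 to 297 of all 9950 genes were called higher. Vha100-5, VhaAC39-1, VhaAC45 and VhaM8.9 passed under all 3 scalings and with both count tests, and with Vha44, Vha55 and Vha68-2 in each of the 16 fits without 1 library. Vha13, Vha16-1, Vha36-1 and VhaSFD lost the call in 10 to 13 of those 16 fits.

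In the comparisons of HSD with LSD, the V-ATPase genes that passed were all higher on HSD in grn RNAi-labelled larvae and, except Vha100-1, lower on HSD in control larvae. In grn RNAi-labelled larvae, 7 of 22 were higher on HSD than on LSD and 0 lower, where 18.3% and 23.3% of all genes were called, with a median of 0.11 against -0.02 for all genes. In control larvae, 1 was higher and 10 lower, where 19.3% and 22.3% of all genes were called, with a median of -0.14 against 0.02. The share of members called higher in grn RNAi-labelled larvae rested on few libraries: the count was 2 without grn RNAi HSD replicate 1 and 4 without grn RNAi HSD replicate 4 or grn RNAi LSD replicate 3. Without these libraries, in the order given, 1519, 1565 and 1574 of all 9950 genes were higher. The member count was 14 with DESeq2, 7 with edgeR and 4 with quantile normalization, where 2255, 1853 and 1944 of all genes were higher. At an unadjusted p under 0.05 limma gave 11 members higher and 0 lower. VhaAC39-1 and Vha36-3 were higher on HSD in grn RNAi-labelled larvae under all 3 scalings and both count tests. In control larvae Vha13, Vha16-1, Vha100-5, VhaAC39-1, VhaAC45 and VhaM8.9 were lower and Vha100-1 higher under all of them. These comparisons share libraries with those between the genotypes and are not separate evidence.

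With the authors' scaling, the summed level of the 22 genes was highest in control larvae on LSD (mean 12113 normalized CPM), whereas without it the grn RNAi-labelled libraries on HSD had the highest mean (11356 CPM), against 11216 in control libraries on LSD. The sums were 9875 to 10105 normalized CPM in the grn RNAi-labelled libraries on LSD, against 11510.3 to 12626 in control libraries, and these did not overlap. On HSD the sums were 10278 to 11347 in the grn RNAi-labelled libraries and 10149 to 11434 in control libraries, which overlapped. As CPM of the recovered reads, without the scaling, the sums on LSD were 10462 to 10819 in the grn RNAi-labelled libraries and 10591 to 12047 in control libraries, which overlapped. On HSD they were 10667 to 12199 in the grn RNAi-labelled libraries and 9727 to 10760.4 in control libraries, which overlapped as well.

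**Figure D3:**
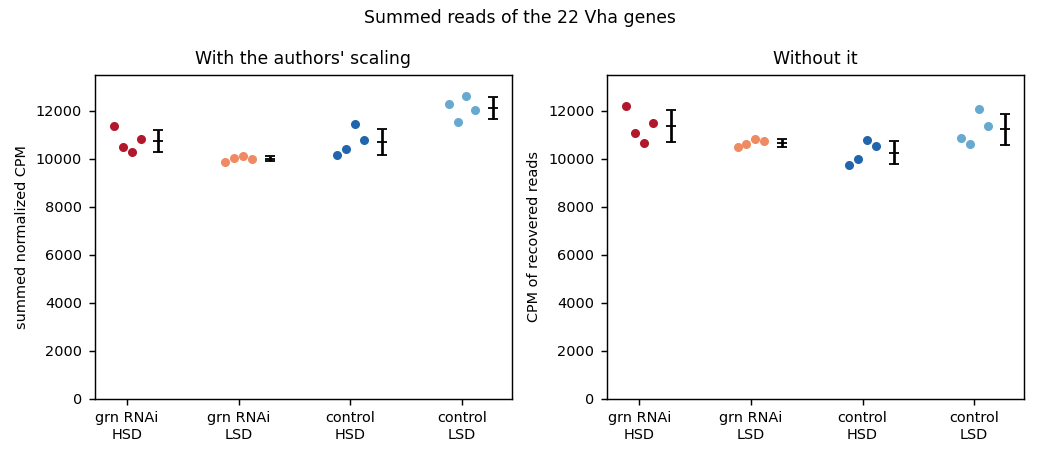
Sum of the 22 Vha genes in each library, 4 points per group with the mean and SD beside them, as normalized CPM (left) and CPM of the recovered reads without the authors' scaling (right). The grn RNAi-labelled libraries on LSD lay below control LSD on the left (9875 to 10105 in the grn RNAi-labelled libraries against 11510.3 to 12626 in control libraries), and the groups overlapped on the right.

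Ratios between genes of 1 library are the same with and without the authors' scaling, which multiplies all genes of a library alike, but not after quantile normalization, for which they were not computed. The summed V1 genes over the summed V0 genes, per kb, gave a ratio of 1.43 to 1.46 in the grn RNAi-labelled libraries and 1.42 to 1.49 in control libraries on LSD, and 1.43 to 1.45 in the grn RNAi-labelled libraries and 1.43 to 1.48 in control libraries on HSD. All 4 groups overlapped in this ratio. Vha55 over Vha68-2, the B and A subunits that form the ATP-binding ring together, gave 0.796 to 0.819 in the grn RNAi-labelled libraries and 0.806 to 0.85 in control libraries on LSD, and 0.798 to 0.811 in the grn RNAi-labelled libraries and 0.788 to 0.833 in control libraries on HSD, again with overlap. Shares among the copies of the a, A and D subunits are given with those genes below.

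Among the V1 genes, Vha68-2 (2L, 12974322 to 12978607) encodes the catalytic A subunit that binds and splits ATP. Vha68-2 had 1136, 1123, 1170.1 and 1144 normalized CPM on LSD in the grn RNAi-labelled libraries, against 1412, 1356, 1505 and 1415 in control libraries. On HSD, Vha68-2 had 1316, 1200.05, 1179 and 1232 in the grn RNAi-labelled libraries and 1236, 1233, 1296 and 1244 in control libraries. The groups did not overlap on LSD, where Vha68-2 fell (log2 fold change -0.31, SE 0.04, adjusted p = 1.6e-05), and overlapped on HSD (log2 fold change -0.02, SE 0.04, adjusted p = 0.66, 95% interval -0.11 to 0.06). The difference between the diets was 0.29, SE 0.06, adjusted p = 0.009. Its copy Vha68-1 (2L, 13000770 to 13004107) lies close to it on chromosome 2L, and reads that match both copies could not be followed here. Vha68-1 had 45.3, 46.2, 47.0 and 47.3 normalized CPM on LSD in the grn RNAi-labelled libraries, against 44.5, 44.3, 43.6 and 45.3 in control libraries. On HSD, Vha68-1 had 47.9, 47.2, 51.4 and 49.8 in the grn RNAi-labelled libraries and 46.6, 41.6, 44.5 and 45.7 in control libraries. The grn RNAi-labelled libraries lay above control on both diets without overlap, on LSD so closely that the nearest 2 values round alike, and Vha68-1 passed the test on HSD (log2 fold change 0.14, SE 0.04, adjusted p = 0.014) but not on LSD (0.06, adjusted p = 0.2). On LSD it was also called higher without the authors' scaling (0.27, adjusted p = 0.00011) and with quantile normalization (0.17, adjusted p = 0.0022), and the difference between the diets did not pass (0.07, adjusted p = 0.49). Vha68-1 took 3.95 to 4.08% of the A subunit level per kb in the grn RNAi-labelled libraries and 2.9 to 3.26% in control libraries on LSD. On HSD the shares were 3.62 to 4.3% in the grn RNAi-labelled libraries and 3.36 to 3.74% in control libraries, which overlapped.

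Vha55 (3R, 12623762 to 12627829) encodes the B subunit, which alternates with A in the V1 ring. Vha55 had 929.5, 929, 941 and 928 normalized CPM on LSD in the grn RNAi-labelled libraries, against 1169, 1145, 1225 and 1214 in control libraries. On HSD, Vha55 had 1069, 971, 949.9 and 1009.5 in the grn RNAi-labelled libraries and 983, 1025, 1057 and 1046 in control libraries. It fell on LSD, where the 4 grn RNAi-labelled libraries lay within a narrow band below every control library (log2 fold change -0.35, SE 0.04, adjusted p = 4.5e-06), and the groups overlapped on HSD (-0.04, 95% interval -0.12 to 0.04). The difference between the diets was 0.31, SE 0.06, adjusted p = 0.0054. Vha44 (2R, 16324813 to 16336637) encodes the C subunit, which joins V1 to V0 and is released when the pump comes apart. Its exons overlap those of Hmgs on the opposite strand, and the authors counted reads by strand. Vha44 had 435, 460.3, 457 and 455 normalized CPM on LSD in the grn RNAi-labelled libraries, against 555, 534, 581 and 537 in control libraries. On HSD, Vha44 had 539, 502, 480.3 and 519 in the grn RNAi-labelled libraries and 479, 489, 538 and 509 in control libraries. Vha44 fell on LSD without overlap (log2 fold change -0.29, SE 0.05, adjusted p = 0.00011), although with quantile normalization its value turned to 0.04, and the groups overlapped on HSD (0.02, adjusted p = 0.79). In grn RNAi-labelled larvae, Vha44 was higher on HSD than on LSD (log2 fold change 0.17, SE 0.05, adjusted p = 0.0069), and in control larvae it was lower (-0.13, adjusted p = 0.031), a call lost in 4 of 8 fits without 1 library.

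Vha36-1 (2R, 15541435 to 15542498) encodes the D subunit, part of the central shaft that turns inside V1. Vha36-1 had 258, 241, 249 and 257 normalized CPM on LSD in the grn RNAi-labelled libraries, against 323, 308, 299 and 290.1 in control libraries. On HSD, Vha36-1 had 286, 275, 275 and 274 in the grn RNAi-labelled libraries and 268, 267, 308 and 281 in control libraries. It fell on LSD without overlap (log2 fold change -0.28, SE 0.05, adjusted p = 0.0002), with a value of 0.0027 after quantile normalization, and the groups overlapped on HSD (-0.02, 95% interval -0.12 to 0.08). Vha36-3 (X, 2579091 to 2580560) is a sparse copy of the same subunit. Vha36-3 had 16.8, 12.9, 15.9 and 16.1 normalized CPM on LSD in the grn RNAi-labelled libraries, against 23.0, 21.6, 20.9 and 20.5 in control libraries. On HSD, Vha36-3 had 18.3, 17.2, 19.9 and 17.5 in the grn RNAi-labelled libraries and 23.8, 21.2, 23.1 and 23.1 in control libraries. Every grn RNAi-labelled library lay below every control library on both diets, and Vha36-3 fell on LSD (log2 fold change -0.47, SE 0.07, adjusted p = 0.0001) and on HSD (log2 fold change -0.32, SE 0.07, adjusted p = 0.0035). For Vha36-3 the difference between the diets did not pass (0.16, SE 0.10, adjusted p = 0.43). Of the D subunit level per kb, Vha36-3 took 4.23 to 5.09% in the grn RNAi-labelled libraries and 5.45 to 5.53% in control libraries on LSD, and 4.9 to 5.61% in the grn RNAi-labelled libraries and 5.8 to 6.8% in control libraries on HSD. Neither pair of groups overlapped.

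Vha26 (3R, 5591763 to 5595356) encodes the E subunit and Vha13 (3R, 19643018 to 19644386) the G subunit, which pair to form the peripheral stalks. Vha26 had 942, 1043, 970.3 and 989.7 normalized CPM on LSD in the grn RNAi-labelled libraries, against 1205, 1105, 1266 and 1169 in control libraries. On HSD, Vha26 had 1161, 1067, 1023 and 1105 in the grn RNAi-labelled libraries and 1021, 1041, 1179 and 1118 in control libraries. Vha26 fell on LSD without overlap (log2 fold change -0.27, SE 0.06, adjusted p = 0.0012) and the groups overlapped on HSD (95% interval -0.12 to 0.12), but the difference between the diets did not pass (0.27, SE 0.08, adjusted p = 0.067). Vha13 had 554, 514, 527 and 514 normalized CPM on LSD in the grn RNAi-labelled libraries, against 658, 609, 597 and 584 in control libraries. On HSD, Vha13 had 549, 512, 509 and 532 in the grn RNAi-labelled libraries and 492, 499, 546 and 498 in control libraries. Vha13 fell on LSD without overlap (log2 fold change -0.21, SE 0.05, adjusted p = 0.0014), but with quantile normalization it was called higher (0.13, adjusted p = 0.011), so its direction on LSD rests on the scaling. In control larvae Vha13 was lower on HSD than on LSD (log2 fold change -0.27, SE 0.05, adjusted p = 0.00041), and in grn RNAi-labelled larvae the diets overlapped (-0.00, adjusted p = 0.95).

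Vha14-1 (2R, 15679426 to 15680084) encodes the F subunit of the shaft, and VhaSFD (2L, 16722883 to 16727826) the H subunit, which regulates ATP hydrolysis. Vha14-1 had 207, 202, 209.5 and 193 normalized CPM on LSD in the grn RNAi-labelled libraries, against 276, 253, 242 and 228 in control libraries. On HSD, Vha14-1 had 224, 218, 219.6 and 222 in the grn RNAi-labelled libraries and 209, 216, 248 and 219 in control libraries. Vha14-1 fell on LSD without overlap (log2 fold change -0.30, SE 0.06, adjusted p = 0.00073) and the groups overlapped on HSD (95% interval -0.14 to 0.11). For Vha14-1 the difference between the diets did not pass (0.28, SE 0.08, adjusted p = 0.061). VhaSFD had 356, 370.1, 369.7 and 369 normalized CPM on LSD in the grn RNAi-labelled libraries, against 421, 401, 457 and 428 in control libraries. On HSD, VhaSFD had 429.9, 408, 379 and 411 in the grn RNAi-labelled libraries and 373, 388, 426 and 391 in control libraries. VhaSFD fell on LSD without overlap (log2 fold change -0.22, SE 0.05, adjusted p = 0.002), with a value of 0.09 after quantile normalization, and the groups overlapped on HSD (0.05, adjusted p = 0.49). In grn RNAi-labelled larvae VhaSFD rose on HSD relative to LSD (log2 fold change 0.15, SE 0.05, adjusted p = 0.024), a call lost in 3 of 8 fits without 1 library.

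Among the V0 genes, Vha16-1 (2R, 6625242 to 6633090) encodes the c subunit of the rotating ring and had the most reads of all members. Vha16-1 had 2522, 2627, 2620.2 and 2565 normalized CPM on LSD in the grn RNAi-labelled libraries, against 3091, 2876, 3320.4 and 3119.8 in control libraries. On HSD, Vha16-1 had 2886, 2651, 2607 and 2739 in the grn RNAi-labelled libraries and 2455, 2574, 2919.6 and 2694 in control libraries. It fell on LSD without overlap (log2 fold change -0.26, SE 0.05, adjusted p = 0.0011) and the groups overlapped on HSD (0.03, 95% interval -0.08 to 0.15). In control larvae Vha16-1 was lower on HSD than on LSD (log2 fold change -0.22, SE 0.05, adjusted p = 0.0047), although control HSD replicate 3 lay within the LSD range. VhaPPA1-1 (3R, 14902330 to 14904061) encodes the c'' subunit of the same ring. VhaPPA1-1 had 312, 301, 336 and 330.2 normalized CPM on LSD in the grn RNAi-labelled libraries, against 398, 375, 378 and 362 in control libraries. On HSD, VhaPPA1-1 had 376, 338, 326 and 352 in the grn RNAi-labelled libraries and 335, 329, 362 and 365 in control libraries. VhaPPA1-1 fell on LSD without overlap (log2 fold change -0.24, SE 0.05, adjusted p = 0.0015), with a value of 0.03 after quantile normalization, and the groups overlapped on HSD (95% interval -0.11 to 0.11).

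VhaAC39-1 (X, 3880748 to 3882967) encodes the d subunit, which couples the shaft to the ring. VhaAC39-1 had 356, 359, 344 and 347 normalized CPM on LSD in the grn RNAi-labelled libraries, against 472, 424, 450.1 and 434 in control libraries. On HSD, VhaAC39-1 had 416, 377, 369 and 392 in the grn RNAi-labelled libraries and 376, 379, 424 and 396 in control libraries. It fell on LSD without overlap (log2 fold change -0.34, SE 0.05, adjusted p = 4.4e-05) and the groups overlapped on HSD (-0.02, 95% interval -0.12 to 0.08). VhaAC39-1 was called in all 3 other comparisons as well: higher on HSD than on LSD in grn RNAi-labelled larvae (log2 fold change 0.14, SE 0.05, adjusted p = 0.029), lower in control larvae (log2 fold change -0.18, SE 0.05, adjusted p = 0.0088), and different between the diets (0.32, SE 0.07, adjusted p = 0.015). Its rise on HSD in grn RNAi-labelled larvae lost the call in 4 of 8 fits without 1 library.

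The small e subunit of V0 has 3 genes in the table, of which VhaM9.7-b (3L, 21539862 to 21541215) was abundant. VhaM9.7-b had 206, 197, 200.00 and 196 normalized CPM on LSD in the grn RNAi-labelled libraries, against 261, 237, 227 and 231 in control libraries. On HSD, VhaM9.7-b had 223, 214, 202 and 217 in the grn RNAi-labelled libraries and 201, 209.7, 249 and 223 in control libraries. VhaM9.7-b fell on LSD without overlap (log2 fold change -0.25, SE 0.06, adjusted p = 0.003) and the groups overlapped on HSD (95% interval -0.17 to 0.09). The sparse VhaM9.7-c (3L, 4186018 to 4186865) was the exception on HSD. VhaM9.7-c had 28.7, 25.5, 27.0 and 25.0 normalized CPM on LSD in the grn RNAi-labelled libraries, against 31.1, 35.7, 26.4 and 27.8 in control libraries. On HSD, VhaM9.7-c had 22.1, 24.1, 25.6 and 23.1 in the grn RNAi-labelled libraries and 31.4, 36.4, 24.8 and 26.4 in control libraries. VhaM9.7-c fell on HSD (log2 fold change -0.31, SE 0.11, adjusted p = 0.041) although 1 grn RNAi-labelled library lay within the control range, and did not pass on LSD (-0.18, adjusted p = 0.19). VhaM9.7-a (3L, 4262705 to 4263464), the sparsest member, ranged from 1.5 to 2.71 normalized CPM in the grn RNAi-labelled libraries and from 1.66 to 2.67 in control libraries, and passed in no comparison. At this level its change on LSD had an interval of -0.34 to 0.28, so a change as large as that of most other members was not detectable.

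The a subunit, through which protons enter and leave the ring and which sets where the pump is placed, has 4 genes in the table, whose log2 fold changes on LSD ran from -0.69 to 0.16. Vha100-4 (3R, 18386841 to 18389805) is known for its part in acid secretion by the copper cells. Vha100-4 had 53.3, 66.0, 52.0 and 53.0 normalized CPM on LSD in the grn RNAi-labelled libraries, against 101, 81.0, 94.3 and 85.5 in control libraries. On HSD, Vha100-4 had 59.7, 58.1, 60.4 and 50.5 in the grn RNAi-labelled libraries and 82.9, 76.0, 87.0 and 78.9 in control libraries. All grn RNAi-labelled libraries lay below all control libraries on both diets, and Vha100-4 fell on LSD (log2 fold change -0.69, SE 0.09, adjusted p = 1.5e-05) and on HSD (log2 fold change -0.50, SE 0.09, adjusted p = 0.00038), the lowest value among the 22 genes on each diet. For Vha100-4 the difference between the diets did not pass (0.18, SE 0.12, adjusted p = 0.43). Its exons overlap those of cona on the opposite strand, with strand-specific counting. Vha100-5 (2L, 11738948 to 11744524) is another copy, with an antisense RNA annotated across its exons. Vha100-5 had 145, 165, 166 and 156 normalized CPM on LSD in the grn RNAi-labelled libraries, against 224, 219, 233 and 234 in control libraries. On HSD, Vha100-5 had 183, 165, 179 and 171 in the grn RNAi-labelled libraries and 178, 195, 205 and 173 in control libraries. Vha100-5 fell on LSD without overlap (log2 fold change -0.53, SE 0.06, adjusted p = 3.6e-06) and did not pass on HSD (-0.11, 95% interval -0.23 to 0.02). It had the largest difference between the diets among the 22 genes (0.42, SE 0.08, adjusted p = 0.0087) and fell on HSD relative to LSD in control larvae (log2 fold change -0.28, SE 0.06, adjusted p = 0.0016).

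Vha100-2 (3R, 18390323 to 18399169), a neighbour of Vha100-4 on chromosome 3R, was the most abundant a subunit gene. Vha100-2 had 472, 448, 485 and 486 normalized CPM on LSD in the grn RNAi-labelled libraries, against 492, 426, 554 and 524 in control libraries. On HSD, Vha100-2 had 533, 496, 484 and 513 in the grn RNAi-labelled libraries and 414, 427, 492 and 471 in control libraries. The groups overlapped on both diets and with the authors' scaling Vha100-2 passed in no comparison, with -0.07 on LSD (95% interval -0.23 to 0.09) and 0.17 on HSD (0.01 to 0.33, adjusted p = 0.082). Under other scalings it was called higher: on HSD without the authors' scaling (0.31, adjusted p = 0.0056) and with quantile normalization (0.42, adjusted p = 0.00031), and on LSD with quantile normalization (0.26, adjusted p = 0.0072). Vha100-1 (3R, 29131193 to 29137980) encodes the a subunit known from neurons, where it acts at synaptic vesicles, and overlaps exons of Alg13 on the opposite strand. Vha100-1 had 66.0, 66.5, 70.2 and 63.2 normalized CPM on LSD in the grn RNAi-labelled libraries, against 54.1, 59.2, 59.4 and 65.9 in control libraries. On HSD, Vha100-1 had 61.8, 66.5, 67.1 and 67.3 in the grn RNAi-labelled libraries and 75.0, 75.7, 59.1 and 67.6 in control libraries. The groups overlapped on both diets, with 0.16 on LSD (adjusted p = 0.088) and -0.07 on HSD (adjusted p = 0.48). On LSD Vha100-1 was called higher without the authors' scaling (0.36, adjusted p = 0.0017) and with quantile normalization (0.29, adjusted p = 0.0038). In control larvae Vha100-1 was the only member to rise on HSD relative to LSD (log2 fold change 0.21, SE 0.07, adjusted p = 0.035), a call lost in 6 of 8 fits without 1 library.

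Within the 4 a subunit genes, taken per kb, Vha100-2 took 62.2, 58.0, 60.8 and 62.1% of the level on LSD in the grn RNAi-labelled libraries, against 54.0, 51.9, 56.5 and 55.3% in control libraries. On HSD it took 61.6, 61.1, 59.2 and 62.0% in the grn RNAi-labelled libraries, against 52.9, 53.0, 56.0 and 57.3% in control libraries. The larger share of Vha100-2 in the grn RNAi-labelled libraries thus appeared on both diets without overlap, while its level was not called different on either with the authors' scaling and was called higher on HSD under both other scalings. The share of Vha100-4 was 7.7 to 10.1% in the grn RNAi-labelled libraries against 10.6 to 13.1% in control libraries on LSD and 7.2 to 8.72% in the grn RNAi-labelled libraries against 11.1 to 12.5% in control libraries on HSD, lower without overlap on both diets. The share of Vha100-5 was 21.0 to 23.5% in the grn RNAi-labelled libraries against 26.2 to 29.5% in control libraries on LSD, without overlap, and 22.4 to 24.1% in the grn RNAi-labelled libraries against 23.3 to 26.7% in control libraries on HSD, with overlap. The share of Vha100-1 was 7.91 to 8.62% in the grn RNAi-labelled libraries against 5.82 to 7.05% in control libraries on LSD, without overlap, and 6.99 to 8.03% in the grn RNAi-labelled libraries against 6.58 to 9.4% in control libraries on HSD, with overlap. No test was made of these shares, which sum to a whole in each library and so cannot move alone.

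**Figure D4:**
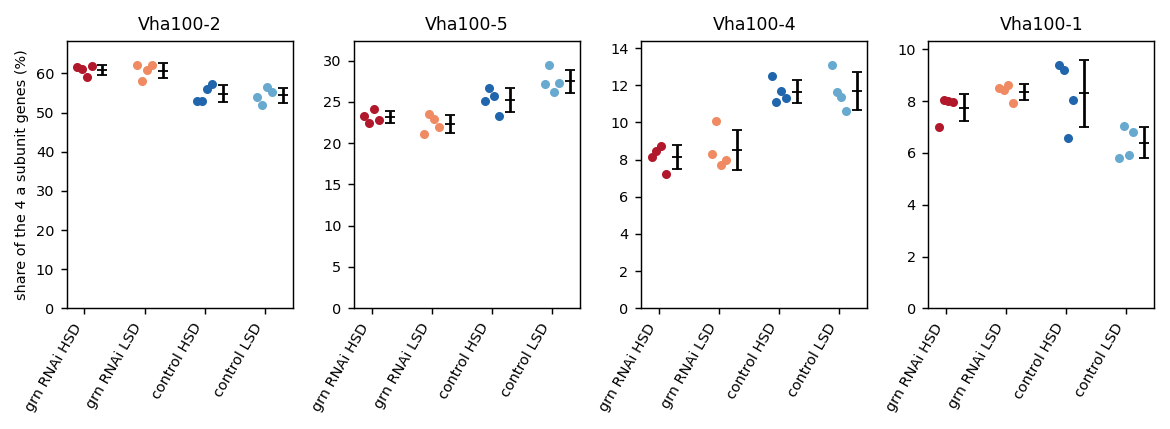
Share of each a subunit gene in the summed level of the 4 a subunit genes per kb, 1 point per library with the mean and SD beside each group of 4. Vha100-2 took 58.0 to 62.2% in the grn RNAi-labelled libraries on LSD against 51.9 to 56.5% in control, and Vha100-4 took 7.7 to 10.1% in the grn RNAi-labelled libraries against 10.6 to 13.1% in control, with the same directions on HSD.

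Both accessory genes fell on LSD with the authors' scaling, and neither passed with quantile normalization. VhaAC45 (2R, 9207561 to 9209774) encodes Ac45, a membrane protein bound to V0. VhaAC45 had 441, 446, 454 and 435 normalized CPM on LSD in the grn RNAi-labelled libraries, against 582, 533, 574 and 547 in control libraries. On HSD, VhaAC45 had 516, 479, 464 and 496 in the grn RNAi-labelled libraries and 467, 478, 505 and 492 in control libraries. It fell on LSD without overlap (log2 fold change -0.33, SE 0.04, adjusted p = 9.9e-06), with a value of -0.01 after quantile normalization (adjusted p = 0.85), the groups overlapped on HSD (0.01, 95% interval -0.08 to 0.09), and the difference between the diets was 0.34, SE 0.06, adjusted p = 0.0036. VhaM8.9 (3R, 9260638 to 9262590) encodes the fly counterpart of the human prorenin receptor, ATP6AP2. VhaM8.9 had 392, 389, 393 and 391 normalized CPM on LSD in the grn RNAi-labelled libraries, against 496, 464, 472 and 463 in control libraries. On HSD, VhaM8.9 had 429, 394, 405 and 418 in the grn RNAi-labelled libraries and 399.6, 406, 439 and 419.7 in control libraries. VhaM8.9 fell on LSD without overlap (log2 fold change -0.28, SE 0.04, adjusted p = 2.9e-05), with a value of 0.02 after quantile normalization, and the groups overlapped on HSD (-0.02, 95% interval -0.10 to 0.07). The difference between the diets was 0.26, SE 0.05, adjusted p = 0.011.

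Other genes of the pathway were counted in lists, with the authors' scaling and then under the other scalings. Of all genes tested, 27.1% rose and 27.1% fell on LSD, whereas 17.9% rose and 21.2% fell on HSD, and a list whose share is near these does not stand apart from them. With quantile normalization, 4105 of 9950 genes rose and 1905 fell on LSD, and 3930 rose and 1442 fell on HSD. Without the authors' scaling, 5368 rose and 1598 fell on LSD, and 4209 rose and 1392 fell on HSD. Of 9 V-ATPase regulators (RAVE assembly, Rag and Ragulator genes and the transcription factor gene Mitf), 0 rose and 4 fell on LSD (median -0.12), and 0 rose and 3 fell on HSD (median -0.12). The lowest adjusted p values on LSD were those of RagA-B (-0.34, adjusted p = 0.00068), Rbcn-3B (-0.31, 0.0035) and RagC-D (-0.17, 0.0091). Of 18 lysosome genes, 0 rose and 12 fell on LSD (median -0.31) and 0 rose and 11 fell on HSD (median -0.25). Hexo2, a beta-hexosaminidase gene, fell by 0.78 on LSD and by 0.57 on HSD on the log2 scale, LManII, an alpha-mannosidase gene, by 0.70 and 0.25, and Sap-r, the saposin precursor gene, by 0.46 and 0.30. Quantile normalization left 7 lysosome genes lower on LSD, with 1 higher, and 5 lower on HSD, with 2 higher. Unscaled CPM gave 7 lower and 2 higher for LSD, against 8 lower and 2 higher for HSD. The regulators had 2 lower and 0 higher on LSD with quantile normalization, and 0 lower and 1 higher without the scaling. The Vha genes had 17 lower on LSD and 3 on HSD, and their pattern was not tested against that of the lysosome genes.

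The 15 genes of the mitochondrial ATP synthase, the rotary ATPase most like the V-ATPase, had 0 higher and 13 lower on LSD (median -0.20) and 0 higher and 2 lower on HSD (median 0.00). In the difference between the diets 4 were higher and 0 lower, where 3.72% and 1.63% of all genes were called. Quantile normalization turned the counts to 6 higher and 2 lower for LSD, against 9 higher and 1 lower for HSD, and without the authors' scaling they were 1 and 2 on LSD and 11 and 1 on HSD. Many genes outside the list were also higher under these scalings. With quantile normalization 4105 of all 9950 genes were higher on LSD and 3930 on HSD, and without the authors' scaling 5368 and 4209. Of the ATP synthase genes, the lowest adjusted p values on LSD were those of ATPsynG (-0.43, adjusted p = 4.7e-05), blw, the alpha subunit gene (-0.20, 0.00011) and ATPsynC, the c subunit gene (-0.24, 0.00021). The summed Vha genes over the summed ATP synthase genes, a ratio within each library, was 0.697 to 0.736 in the grn RNAi-labelled libraries and 0.699 to 0.817 in control libraries on LSD, and 0.701 to 0.777 in the grn RNAi-labelled libraries and 0.693 to 0.773 in control libraries on HSD. All these ranges overlapped. Of 14 proton-coupled transporter genes, 4 rose and 4 fell on each diet (median 0.09 on both), on LSD a share near the 27.1% of all genes called in each direction, whereas without the authors' scaling 9 rose and 3 fell on LSD and 8 rose and 1 fell on HSD. The sodium/proton exchanger genes Nha1 (-0.81, adjusted p = 6.0e-09), Nhe3 (-0.43, 1.0e-05) and Nhe1 (-0.36, 1.3e-05) were among those that fell on LSD.

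Markers of several tissues moved beside the Vha genes. Of 7 midgut enzyme markers, 0 rose and 6 fell on LSD (median -1.0) and 0 rose and 4 fell on HSD (median -0.36). Their summed level was 1124 to 1219 in the grn RNAi-labelled libraries and 2503 to 2763 in control libraries on LSD, and 2065 to 2313 in the grn RNAi-labelled libraries and 3166 to 3709.8 in control libraries on HSD (normalized CPM, as for the sums that follow). Of 5 copper cell and midgut region markers, 1 rose and 3 fell on LSD and 0 rose and 1 fell on HSD, with sums of 260.04 to 284 in the grn RNAi-labelled libraries and 358 to 375 in control libraries on LSD, and 641 to 683 in the grn RNAi-labelled libraries and 616 to 716 in control libraries on HSD. With the authors' scaling, the median of the 5 was -0.27 on LSD but 0.02 on HSD, and their calls on LSD went in both directions. The sums rested mainly on CAH2 and CAH1, with means of 292 and 149 normalized CPM over all libraries. The sparsest of the 5, the copper cell gene lab, had a mean of 4.47. Of 8 muscle markers, 0 rose and 6 fell on LSD and none passed on HSD, with sums of 40342 to 44187 in the grn RNAi-labelled libraries and 46007 to 49805 in control libraries on LSD, and 45192 to 48348 in the grn RNAi-labelled libraries and 45137 to 49605 in control libraries on HSD. The 6 lower muscle markers became 2 with quantile normalization and 0 as unscaled CPM, while 6 midgut markers were lower on LSD under each scaling. Of all 9950 genes, 1905 were lower on LSD with quantile normalization and 1598 as unscaled CPM.

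Of 7 neuron markers, 6 rose and 0 fell on LSD and 2 rose and 0 fell on HSD, with sums of 206 to 250.3 in the grn RNAi-labelled libraries and 172 to 224 in control libraries on LSD, and 276 to 304 in the grn RNAi-labelled libraries and 252 to 271 in control libraries on HSD. On HSD against LSD, 5 of the 7 neuron markers were higher in grn RNAi-labelled larvae and 6 in control larvae. Of all genes tested, 18.3% and 19.3% were called higher in these comparisons. Vha100-1 was called higher in control larvae, a call lost in 6 of 8 fits without 1 library, but not in grn RNAi-labelled larvae (-0.02, adjusted p = 0.88). Of 16 Malpighian tubule markers, 5 rose and 2 fell on LSD and 4 rose and 2 fell on HSD, shares near or little above the 27.1% and 17.9% of all genes called higher on LSD and HSD and below the 27.1% and 21.2% called lower, with sums of 515 to 549 in the grn RNAi-labelled libraries and 482 to 644 in control libraries on LSD, and 398 to 437 in the grn RNAi-labelled libraries and 382 to 460.2 in control libraries on HSD. Of 3 fat body markers in the table none passed on LSD and 1 fell on HSD, with sums of 5462 to 6439.6 in the grn RNAi-labelled libraries and 5927 to 8169.7 in control libraries on LSD, and 4369 to 4833 in the grn RNAi-labelled libraries and 5099 to 6597 in control libraries on HSD. These sums were nearly all Rfabg, with a mean of 5765 over all libraries, beside 8.4 for Lsp1beta and 7.42 for Lsp1gamma. The 2 testis markers in the table passed on neither diet, with sums of 42.7 to 47.8 in the grn RNAi-labelled libraries and 34.6 to 45.1 in control libraries on LSD, and 38.7 to 42.8 in the grn RNAi-labelled libraries and 40.9 to 43.3 in control libraries on HSD. No marker of these lists was at 0 in any library, and the part of these tissues in the Vha values was not tested.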

How the data were processed

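RNA-seq of whole Drosophila larvae was analysed in 16 libraries of 4 groups. Reads were trimmed by the authors (Trimmomatic), mapped to the FlyBase genome release with TopHat2 2.1.0 and counted by strand with HTSeq (2.7.6 in their processing notes). After their filter on low counts, the deposited signal of each gene is its normalized CPM in every library. Within a library all values were multiples of 1 constant (100% whole within 0.01 read), so dividing by it recovered the reads, and no column of sample values was left without a sample. The authors' log2 fold changes and mean log2 values, the deposited score columns (t and F statistics) and the authors' p-values were not used.

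A gene was tested when it exceeded 1 normalized CPM in 3 or more of a group's 4 libraries (9950 of 9982 genes), and log2(normalized CPM + 0.5) was fitted (a mean per group, moderated variances with a trend, two-sided, Benjamini-Hochberg over all genes kept, threshold 0.05) with limma 3.58.1 in R 4.3.3. The count tests were those of DESeq2 1.42.0 and edgeR 4.0.16 on the recovered reads. All adjusted p-values are from limma. The fit was checked on simulated data. Alternatives were quantile normalization, CPM of the recovered reads, both count tests, a pseudocount of 0.1 or of 1, the filter set at 5 or removed, fits on only the 8 libraries compared, a replicate block, and each library left out in turn. Positions and exon lengths are from the Ensembl annotation of the same genome assembly, in which Vha44 and VhaAC39-1 were matched by symbol, and levels between genes were compared per kb of exon.

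The members and lists were chosen with earlier results of these data known. Every Vha gene is named. Values per library are given for abundant members and for sparse members past the threshold between the genotypes, and of other lists the members with the lowest adjusted p on LSD, up to 3.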

Additional observations from a re-analysis of the deposited data

Results flagged for a closer look

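In 6 of 88 groups of 4 values, 1 library stood apart from the other 3 by Dixon's test at the 95% level, which chance alone gives in about 1 of 20 groups. In the grn RNAi-labelled libraries on LSD these were replicate 3 for Vha55 (941 normalized CPM, others 928 to 929.5), replicate 1 for VhaSFD (356, others 369 to 370.1) and replicate 2 for Vha100-4 (66.0, others 52.0 to 53.3). In the grn RNAi-labelled libraries on HSD they were replicate 1 for Vha36-1 (286, others 274 to 275) and for Vha100-1 (61.8, others 66.5 to 67.3). In control libraries on HSD it was replicate 3 for Vha13 (546, others 492 to 499).

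The change in the grn RNAi-labelled libraries against control differed between HSD and LSD, by limma's test of the difference itself, for 11 genes, each with the higher value on HSD. The differences in log2 fold change were 0.42 for Vha100-5, 0.34 for VhaAC45, 0.32 for VhaAC39-1, 0.31 for Vha55, 0.30 for Vha44 and Vha16-1, 0.29 for Vha68-2, 0.27 for VhaSFD and 0.26 for Vha36-1, Vha13 and VhaM8.9.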

How the results depend on the processing

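Scaling decided most counts between the genotypes. Without the authors' scaling, 6 Vha genes were lower and 2 higher in the grn RNAi-labelled libraries on LSD, 12 were higher on HSD, and 4 differed upward between the diets. Of all 9950 genes, 1598 were then lower and 5368 higher on LSD, 4209 were higher on HSD, and 244 differed upward. With quantile normalization, 4 were lower and 4 higher on LSD, 12 higher on HSD, 4 higher on HSD in grn RNAi-labelled larvae, 6 lower in control larvae, and 4 differed upward. The counts over all 9950 genes were, in the same order, 1905, 4105, 3930, 1944, 2053 and 385. On LSD quantile normalization turned Vha13 to 0.13 (adjusted p = 0.011), VhaSFD to 0.085, Vha44 to 0.044, VhaPPA1-1 to 0.031, VhaM8.9 to 0.021 and Vha36-1 to 0.0027. The cause was not tested. With the 8 libraries of a comparison alone, 0 genes were higher on HSD between the genotypes, 0 were higher on HSD in control larvae and 11 were higher in grn RNAi-labelled larvae, the last being 14 with DESeq2. The counts over all 9950 genes were, in the same order, 1783, 1181 and 2244, and 2255 with DESeq2.

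Leaving out 1 library gave 17 genes lower on LSD in every fit and 0 to 1 higher. It gave 2 to 3 lower and 1 to 2 higher on HSD, 8 to 14 lower and 0 to 1 higher between the diets in control larvae, 2 to 9 higher in grn RNAi-labelled larvae, and 7 to 15 upward and 0 to 1 downward differences. Over all 9950 genes these fits gave 2450 to 2641 lower and 2369 to 2604 higher on LSD, and 1842 to 2011 lower and 1463 to 1698 higher on HSD. Between the diets 1938 to 2293 were lower and 1554 to 2008 higher in control larvae, and 1519 to 1691 higher in grn RNAi-labelled larvae. Upward differences numbered 249 to 562 and downward ones 76 to 454.

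Of 24 correlations between deviations of same-numbered libraries, 10 were over 0.1 (range -0.51 to 0.80). Differently numbered libraries were not compared, so these values cannot decide whether the replicate numbers pair the libraries. A replicate block gave 17 genes lower and 0 higher on LSD, 3 lower and 2 higher on HSD, 10 lower and 0 higher between the diets in control larvae, 6 higher in grn RNAi-labelled larvae and 8 upward differences. The counts over all 9950 genes were, in the same order, 2653, 2670, 2073, 1751, 2172, 1843, 1792 and 300.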
